A study of Homo sapiens with 12 samples.

Results

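Kinesins are motor proteins that use ATP to move along microtubules or to take their ends apart, and a subset of them builds the mitotic spindle, moves the chromosomes and completes cytokinesis. Most mitotic kinesin genes are transcribed in late S, G2 and M phase, when the MuvB complex with B-MYB and FOXM1 acts at their promoters, and the same core complex with p130 or p107 and E2F4 (DREAM) represses them in cells that leave the cycle. In p53-competent cells such as HCT116, DNA damage is known to engage this repression through p21. The genes described here are the 10 mitotic kinesins KIF11, KIF15, KIF18A, KIF2C, KIF4A, KIF22, KIF14, KIF20A, KIF20B and KIF23. They were chosen by name, as all probes of these genes in the unscaled table of all 12 arrays, and this gave 13 of 47300 probes. Of the 13 probes, 12 were detected on enough arrays to be kept, and all 10 genes were among the 10464 genes tested.

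The RNA came from HCT116, an established colon cancer cell line, and was hybridized to Illumina HumanHT-12 v4 bead arrays. ATF3-KO cells and ATF3-wildtype (WT) cells each received 1.5 µM camptothecin (CPT), a topoisomerase I poison that causes DNA breaks, or DMSO, the solvent, for 4 h, with 3 arrays for each of the 4 groups. The KO cells came from 1 clone, E11, in which both ATF3 alleles had been targeted at exon 3 by recombinant adeno-associated virus, so clone and genotype cannot be told apart. Nothing in the labels ties the replicates to separate cultures, and a p-value here is set against a spread between arrays that may be technical. A group of arrays reads bulk RNA, in which fewer cells in G2 and M phase and less of a transcript per cell cannot be told apart.

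All values are log2 signals after background correction and scaling over the 12 arrays unless stated. A probe was detected on an array when its detection p against negative control beads was below 0.01, and a gene was called when its Benjamini-Hochberg adjusted p from limma was below 0.05. ATF3 itself had raw signals of 289.8, 254 and 282.1 in KO cells with CPT, against 1123.3, 992.8 and 1713.8 in WT cells with CPT. Under DMSO the ATF3 signals were 127.1, 117 and 130.9 in KO cells, against 168, 156.8 and 390.4 in WT cells. ATF3 was therefore lower in KO than in WT cells in every replicate, with a log2 difference of -2.41 under CPT (adjusted p = 0.0337) and -1.38 under DMSO (adjusted p = 0.278, not called), and it rose with CPT in KO cells too (2.53 ± 0.47 SE, adjusted p = 0.00166). Whether the probe lies outside the deleted bases was not given in the sources used here. Of 12 colon epithelial markers 6 were detected on all 12 arrays, EPCAM, KRT8 and KRT19 among them, and 5, including VIL1 and KRT20, on none. Their summed raw signal was 10619 to 15574 in KO and 10802 to 15992 in WT cells with CPT, against 15252 to 16327 in KO and 14059 to 18314 in WT cells with DMSO. Of 11 marker genes of immune, endothelial, fibroblast and liver cells, none was detected on all arrays, 6 on none and 5 on some. Among the last, 1 probe of ALB was detected on 11 arrays (raw signal 104.8 to 148) and 1 of CD14 on 6 (99.7 to 177.1). The CPT arrays had 13713 to 15639 detected probes and the DMSO arrays 15399 to 16823.

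The promoters of the kinesins are shown first because they share short motifs. RefSeq sequences of 250 bases before to 50 bases after the annotated start site (GRCh38.p14) were at hand for all 10 genes, with 2 entries for KIF22, of which the first is described. Both strands were searched for 3 forms of the cell cycle genes homology region (CHR), the element that MuvB binds. These were TTTGAA in the first form, TTTAAA in the second and TTCGAA in the last. The other motifs were CCAAT for NF-Y, TGACGTCA for the CRE that ATF3 and its relatives bind, and TGACTCA for AP-1. The second and last CHR forms read the same on both strands, no motif contains another, and the CHR forms were chosen after the promoters had been read. A CHR form was present in 10 of 10 kinesin promoters, against 25.1% of all 35116 promoters in the table. TTTGAA accounted for 7 of these (15.2% of all promoters), TTTAAA was found in 4 (12.2%) and TTCGAA in 1 (1.45%). CCAAT was found in 8 of 10 (34.6%), in all but KIF2C and KIF15, and the CRE in KIF15 alone (1.85%). The AP-1 site was found in none (4.95%), which says only that these letters are not in these windows. The CHR forms were not particular to the 10. A CHR form was also in 17 of 26 promoters of the spindle partners and regulators listed below, and in 3 of 5 of other mitotic kinesins. For the factors of G2/M genes it was 10 of 28, and for the transport kinesins 3 of 30. CCAAT was in 18, 2, 13 and 9 promoters of these lists in the same order. The 80 bases before the start site are given below for 6 kinesins, in the direction of transcription, with CHR forms and CCAAT in capitals (TTCAAA is the first CHR form on the other strand, and ATTGG likewise for CCAAT). KIF11, KIF18A and KIF15 stand for large and middle fitted changes with CPT, KIF23 and KIF20A for the cytokinesis motors, and KIF22 for the smallest change.
KIF11, chr10:92593050-92593129, plus strand: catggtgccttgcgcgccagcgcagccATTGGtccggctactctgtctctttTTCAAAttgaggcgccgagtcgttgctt
KIF18A, chr11:28108157-28108236, minus strand: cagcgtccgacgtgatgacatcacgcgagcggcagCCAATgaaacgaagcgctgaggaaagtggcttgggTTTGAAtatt
KIF15, chr3:44761714-44761793, plus strand: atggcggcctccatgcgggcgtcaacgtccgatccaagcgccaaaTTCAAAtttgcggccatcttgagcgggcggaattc
KIF22, chr16:29790671-29790750, plus strand: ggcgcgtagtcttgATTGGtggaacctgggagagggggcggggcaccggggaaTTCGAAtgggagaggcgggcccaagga
KIF20A, chr5:138179032-138179111, plus strand: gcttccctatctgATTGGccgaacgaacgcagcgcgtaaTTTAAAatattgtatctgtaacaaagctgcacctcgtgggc
KIF23, chr15:69414269-69414348, plus strand: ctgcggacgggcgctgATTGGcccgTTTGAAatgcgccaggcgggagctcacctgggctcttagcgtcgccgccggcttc

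**Figure D1:**
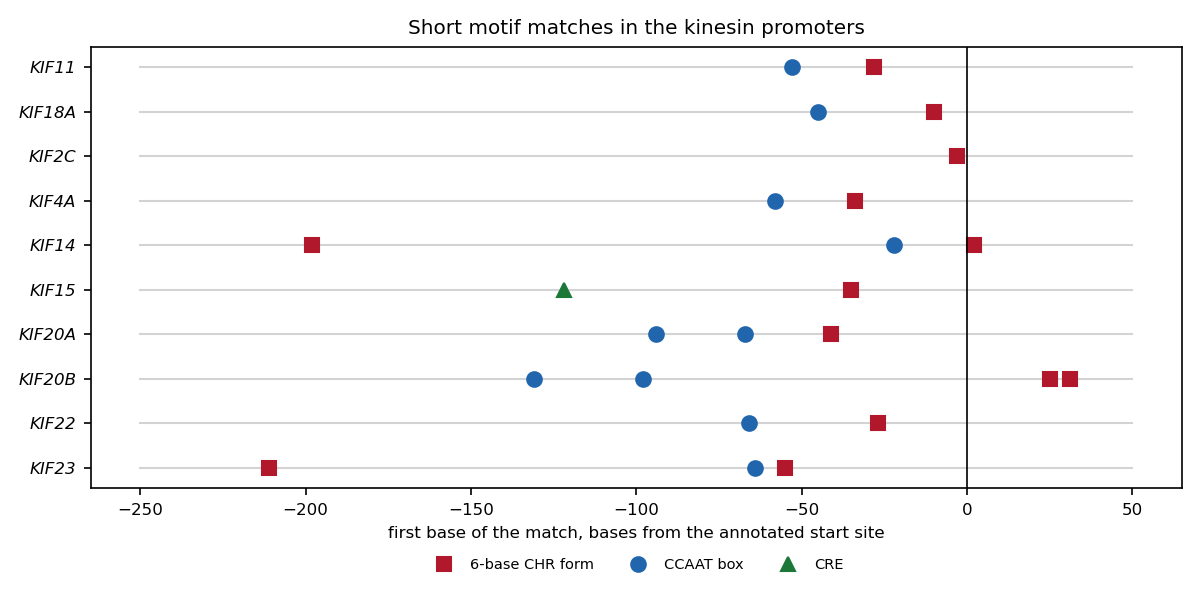
Positions of motif matches in the promoters of the 10 kinesins. The horizontal axis gives the first base of each match in bases from the annotated start site (vertical line), squares are CHR forms, circles CCAAT and the triangle the CRE. Each of the 10 promoters has a CHR form between 100 bases before and 50 bases after the start. So do 11.7% of all promoters and 57.7% of those of the spindle partners and regulators.

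The first question was how CPT changed the kinesins in each genotype. All 10 were lower with CPT than with DMSO in both genotypes and in each of the 30 replicate differences per genotype. In KO cells 7 of 10 were called lower, against 17.9% of all genes tested, and the median change was -0.91 on the log2 scale, against 0.03 for all genes. In WT cells 8 of 10 were called lower, against 18.5% of all genes, and the median change was -1.33, against 0.03. None was called higher in either genotype, against 13.9% of all genes in KO and 13% in WT cells. KIF18A is counted in these calls and medians by its fitted change, although no CPT array detected it. The CPT and DMSO arrays did not overlap for 9 of 10 kinesins in KO cells (25.4% of all genes were lower without overlap) and for 9 of 10 in WT cells (22.3%). The fewer probes detected on the CPT arrays moved with these falls, and their part in them was not tested.

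**Figure D2:**
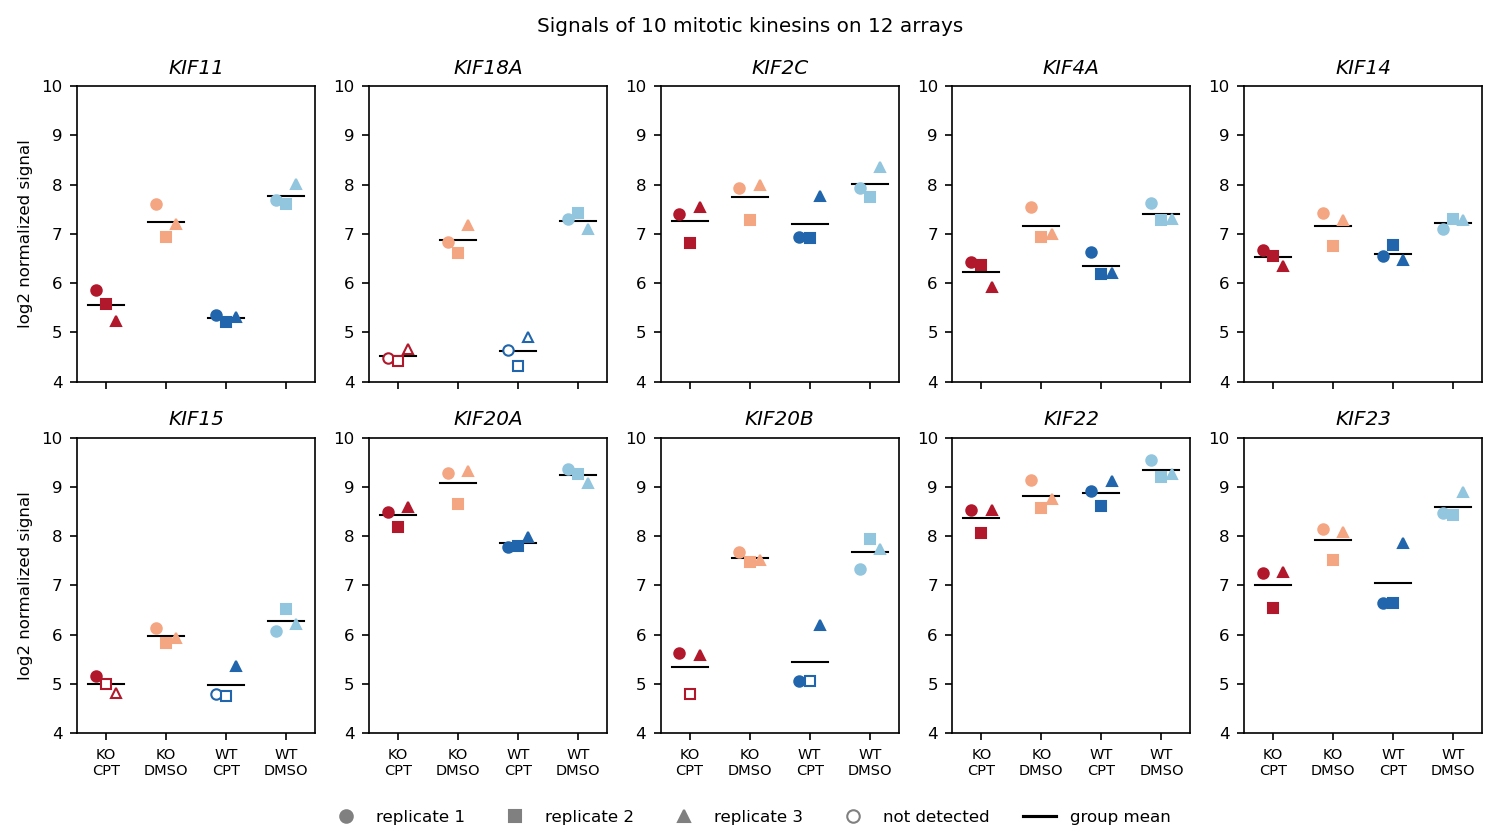
Log2 normalized signal of each kinesin (vertical axis) on every array, by group (horizontal axis). Marker shape gives the replicate, open markers were not detected, and bars are group means of 3 arrays. For KIF11 the CPT arrays lie between 5.20 and 5.85 and the DMSO arrays between 6.94 and 8.01, and for KIF18A no CPT array was detected.

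The motors that set up the bipolar spindle changed most at KIF11. KIF11 (Eg5) crosslinks antiparallel microtubules and pushes the spindle poles apart. In KO cells its signal was 5.85, 5.57 and 5.23 with CPT (replicates 1 to 3), against 7.61, 6.94 and 7.19 with DMSO. WT cells had 5.35, 5.20 and 5.30 with CPT, against 7.69, 7.60 and 8.01 with DMSO. All CPT arrays were thus low and all DMSO arrays high, and KIF11 fell by 1.70 ± 0.21 (SE) in KO cells (3.25-fold, adjusted p = 0.000127) and fell by 2.48 ± 0.21 in WT cells (5.59-fold, adjusted p = 1.25e-05). All CPT arrays detected this probe, but some only just. The lowest detected signal was 5.17 on WT CPT replicate 2 and 5.16 on KO CPT replicate 3, so low signal limits the size of these falls. A second KIF11 probe was detected on all 6 DMSO arrays and no CPT array. It was at least 1.83-fold lower with CPT in KO cells and at least 2.67-fold lower in WT cells. Its adjusted p over all probes (0.00103 in KO and 6.96e-05 in WT cells) tests fitted differences to undetected signals, not these bounds. In the fit over all 13735 kept probes, 17.2% were called lower in KO and 17.9% in WT cells. These bounds set the DMSO mean against the lowest detected signal of each CPT array.

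KIF15 (Hklp2) binds bundled spindle microtubules and can keep the spindle bipolar when KIF11 is inhibited. In KO cells KIF15 gave 5.15, 4.99 and 4.82 with CPT, against 6.14, 5.83 and 5.93 with DMSO. With CPT, WT cells gave 4.80, 4.75 and 5.36, against 6.07, 6.51 and 6.22 with DMSO. The groups did not overlap in either genotype, but only 1 of the 3 CPT arrays of either genotype detected the probe, so the CPT level sits at the edge of detection. KIF15 fell by 0.98 ± 0.20 in KO cells (adjusted p = 0.003) and fell by 1.30 ± 0.20 in WT cells (adjusted p = 0.000525).

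The motors that align chromosomes and shape microtubule ends ranged between a fall below detection and no call. KIF18A limits the growth of kinetochore microtubules and so keeps chromosomes near the spindle equator. In KO cells its signal was 4.48, 4.41 and 4.67 with CPT, against 6.84, 6.61 and 7.18 with DMSO. In WT cells the signal was 4.64, 4.31 and 4.91 with CPT, against 7.29, 7.42 and 7.09 with DMSO. KIF18A was detected on all 6 DMSO arrays and no CPT array, so its change is a bound. It was at least 3.61-fold lower with CPT in KO cells and at least 4.7-fold lower in WT cells. KIF18A passed the detection filter through its DMSO arrays alone. Its adjusted p from limma (1.18e-05 in KO and 6.59e-06 in WT cells) tests fitted differences to undetected signals, not these bounds. A second KIF18A probe was detected on no array and gave no information.

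KIF2C (MCAK) removes tubulin from microtubule ends and helps to release wrong attachments at kinetochores. In KO cells KIF2C gave 7.41, 6.81 and 7.55 with CPT, against 7.93, 7.28 and 8.00 with DMSO. In WT cells it gave 6.93, 6.92 and 7.76 with CPT, against 7.93, 7.74 and 8.36 with DMSO. The groups overlapped in both genotypes, although each replicate was lower with CPT than its own DMSO array. The change was -0.48 ± 0.29 in KO cells (95% interval -1.11 to 0.15, adjusted p = 0.234) and -0.81 ± 0.29 in WT cells (-1.44 to -0.17, adjusted p = 0.0515). With the replicate number as a block, since arrays of 1 number deviated together, KIF2C was called in KO (adjusted p = 0.0272) and WT cells (adjusted p = 0.0018). In WT cells KIF2C was also called without WT CPT replicate 3 (-1.08, adjusted p = 0.0106), KO CPT replicate 2 (adjusted p = 0.0462) or KO DMSO replicate 2 (adjusted p = 0.0465).

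The chromokinesins KIF4A and KIF22 bind chromatin through their tails and push chromosome arms outwards, and KIF4A also shortens the overlap of the central spindle together with PRC1. KIF4A gave 6.42, 6.36 and 5.91 with CPT in KO cells, against 7.55, 6.94 and 6.99 with DMSO. In WT cells KIF4A gave 6.63, 6.18 and 6.21 with CPT, against 7.63, 7.28 and 7.29 with DMSO. The groups did not overlap, and KIF4A fell by 0.93 ± 0.22 in KO cells (adjusted p = 0.0071) and fell by 1.06 ± 0.22 in WT cells (adjusted p = 0.0032). KIF22 gave 8.53, 8.06 and 8.53 with CPT in KO cells, against 9.13, 8.57 and 8.76 with DMSO. In WT cells KIF22 gave 8.91, 8.60 and 9.12 with CPT, against 9.55, 9.20 and 9.26 with DMSO. The KIF22 groups did not overlap either, but the change of -0.45 ± 0.21 in KO cells (adjusted p = 0.125) and -0.46 ± 0.21 in WT cells (adjusted p = 0.115) was not called, and with the block it was (adjusted p = 0.0211 in KO and 0.019 in WT cells).

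The cytokinesis motors were led by KIF20B (MPP1), which works late in abscission at the midbody. In KO cells KIF20B gave 5.62, 4.80 and 5.58 with CPT, against 7.67, 7.47 and 7.51 with DMSO. WT cells had 5.05, 5.06 and 6.20 with CPT, against 7.33, 7.94 and 7.74 with DMSO. The KIF20B probe passed detection on 2 of the 3 CPT arrays of either genotype, and KIF20B fell by 2.21 ± 0.31 in KO cells (adjusted p = 0.000321) and fell by 2.23 ± 0.31 in WT cells (adjusted p = 0.000292).

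KIF20A (MKLP2) carries the chromosomal passenger complex with Aurora B to the central spindle. In KO cells KIF20A gave 8.49, 8.18 and 8.58 with CPT, against 9.27, 8.66 and 9.32 with DMSO. With CPT, WT cells gave 7.77, 7.80 and 7.99, against 9.36, 9.25 and 9.08 with DMSO. The groups did not overlap, and KIF20A fell by 0.67 ± 0.20 in KO cells (1.59-fold, adjusted p = 0.0212) and fell by 1.37 ± 0.20 in WT cells (2.59-fold, adjusted p = 0.000348). The call in KO cells was lost without KO DMSO replicate 1, KO DMSO replicate 3 or KO CPT replicate 2, with an adjusted p of up to 0.0898 for the last of these.

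KIF23 (MKLP1) forms centralspindlin with RACGAP1, which bundles the midzone and brings ECT2 to the cortex. In KO cells KIF23 gave 7.24, 6.53 and 7.26 with CPT, against 8.14, 7.51 and 8.08 with DMSO. In WT cells the signal was 6.65, 6.65 and 7.85 with CPT, against 8.47, 8.43 and 8.89 with DMSO. WT CPT replicate 3 stood above the other WT CPT arrays by more than 1 unit, yet below every WT DMSO array. KIF23 fell by 1.55 ± 0.33 in WT cells (adjusted p = 0.00375). In KO cells the change of -0.90 ± 0.33 was just short of a call (95% interval -1.61 to -0.19, adjusted p = 0.0521), and it was called with the block (adjusted p = 0.00548). It was called too without WT CPT replicate 3 (adjusted p = 0.0116), WT CPT replicate 1 (adjusted p = 0.0455) or KO DMSO replicate 2 (-1.10, adjusted p = 0.0476). A dim second probe of KIF23, detected on 5 of 12 arrays, changed by -0.38 in KO cells (adjusted p = 0.287 over all probes) and by -0.57 in WT cells (adjusted p = 0.107).

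KIF14 binds PRC1 and citron kinase at the midbody. In KO cells KIF14 gave 6.68, 6.55 and 6.35 with CPT, against 7.42, 6.76 and 7.27 with DMSO. In WT cells it gave 6.55, 6.77 and 6.47 with CPT, against 7.09, 7.30 and 7.27 with DMSO. The groups did not overlap, and KIF14 fell by 0.62 ± 0.19 in KO cells and fell by 0.62 ± 0.19 in WT cells, with an adjusted p of 0.0252 in each. The call in KO cells was lost without DMSO replicate 1 (adjusted p = 0.105), DMSO replicate 3, CPT replicate 2 or CPT replicate 3 of the KO arrays. In WT cells it was lost without DMSO replicate 2 (adjusted p = 0.0793), DMSO replicate 3, CPT replicate 1 or CPT replicate 3 of the WT arrays. With the block, all 10 kinesins were called lower in KO cells, against 24.5% of all genes, and all 10 in WT cells, against 25.4%. KIF18A is among them by fitted differences to undetected signals.

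**Figure D3:**
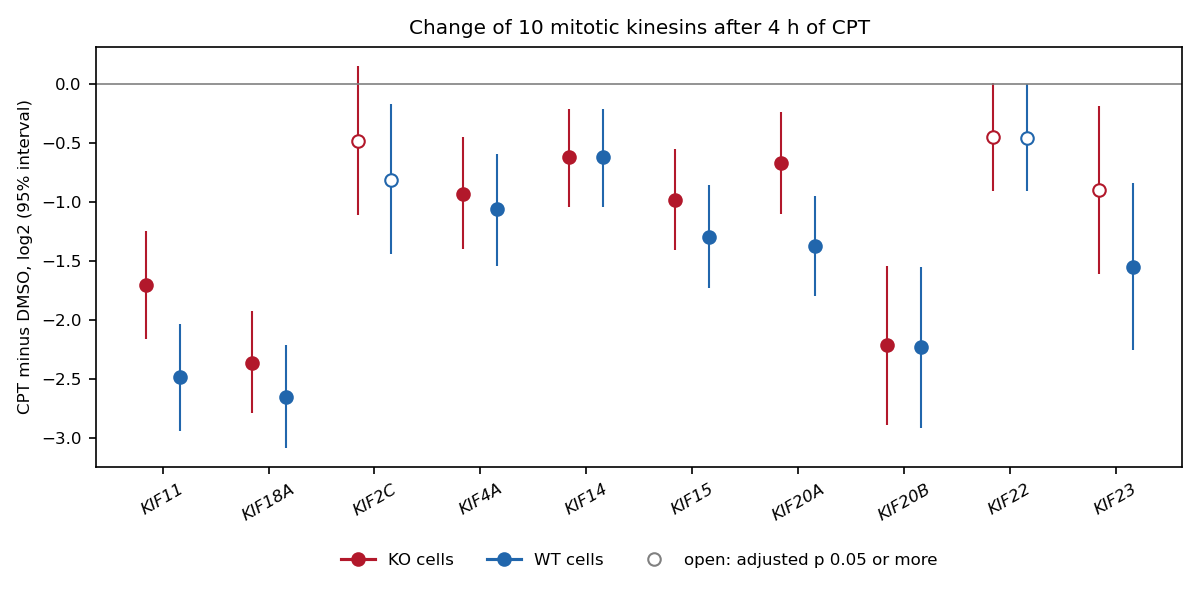
Fitted log2 change with CPT (vertical axis, CPT minus DMSO) of each kinesin in KO cells (left point of each pair) and WT cells (right point). Bars are 95% intervals and open points were not called. All points lie below 0, with KIF18A the lowest in both genotypes (-2.36 in KO and -2.65 in WT cells, fitted values that are no bound because its CPT arrays were below detection).

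The members thus differed in the size of the fitted fall. In WT cells 0.344% of genes tested had a lower fitted change than KIF11 and 0.688% than KIF20B, while for KIF22 it was 24.8%. In KO cells the same shares were 2.39% for KIF11, 0.812% for KIF20B and 24.3% for KIF22. KIF18A has no such share, since its change is a bound. Across the 10 kinesins the change in KO cells followed that in WT cells (Pearson r = 0.92, Spearman rho = 0.88 over 10 genes, which are not independent replicates), much as over all genes (r = 0.93), and these 2 comparisons share no arrays. KIF18A entered this comparison of changes with its fitted values. Over the 12 arrays the 45 pairs of kinesins correlated at 0.51 to 0.97 (median 0.83). After the group means were removed, the pairs correlated at -0.31 to 0.97 (median 0.40). Arrays share depth and scaling, so these correlations are descriptions.

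The second question was whether the knockout changed the kinesins without damage. Under DMSO all 10 were lower in KO than in WT cells by the fitted difference, but none was called, against 1.01% of all genes. The median difference was -0.29, against 0.01 for all genes, and the members ranged between -0.69 for KIF23 and -0.07 for KIF14. KIF23 differed by -0.69 ± 0.33 (95% interval -1.39 to 0.02, adjusted p = 0.525), KIF11 by -0.52 ± 0.21 (-0.97 to -0.06, adjusted p = 0.407) and KIF22 by -0.51 ± 0.21 (-0.97 to -0.06, adjusted p = 0.412). KIF22 and KIF23 were lower in KO cells without overlap (9.11% of all genes were), and 2 members had an unadjusted p under 0.05, as did 1027 of all 10464 genes. With the block, none was called either, against 4.48% of all genes.

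The KO DMSO arrays were uneven. The mean standardized level of the 10 kinesins (each gene scaled to SD 1 over the 12 arrays) was 0.96, 0.08 and 0.69 on the KO DMSO arrays, against 1.04, 1.01 and 1.13 on the WT DMSO arrays. KO DMSO replicate 2 was low for most members, and the median of the 10 differences was -0.08, -0.61 and -0.30 in replicates 1 to 3. Without that array the median difference was -0.18, and the fitted differences of KIF14 (0.13) and KIF20A (0.07) turned positive.

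Under CPT, the KO-minus-WT difference was negative for 6 kinesins and positive for 4, with a median of -0.05. This direction rested on single arrays: without WT CPT replicate 3 the difference was positive for 7 and negative for 3, with a median of 0.25, and without KO CPT replicate 2 the median was 0.09. Without WT CPT replicate 2 the median was -0.14. None was called, against 0.736% of all genes (2 of the 10 had an unadjusted p under 0.05, as did 1084 of all genes), and none with the block, against 4.23%. KIF20A was higher in KO cells on every array (8.18 to 8.58, against 7.77 to 7.99 in WT cells), a difference of 0.56 ± 0.20 (95% interval 0.13 to 0.99, adjusted p = 0.297). KIF22 was lower in KO cells on every array (8.06 to 8.53, against 8.60 to 9.12 in WT cells), a difference of -0.50 ± 0.21 (-0.96 to -0.05, adjusted p = 0.426). These were the only members without overlap, in a table where 13.5% of genes had none. The remaining 8 members differed by -0.10 to 0.26, each with an interval that held 0, the widest that of KIF23 (-0.74 to 0.67). KIF18A is counted here and in the medians, but no CPT array detected it, so its difference is one between undetected signals. KIF15 was detected on only 1 CPT array of either genotype. The standardized level of the 10 kinesins was -0.59, -1.13 and -0.81 on the KO CPT arrays and -0.92, -1.05 and -0.40 on the WT CPT arrays, so the higher WT array was replicate 3.

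**Figure D4:**
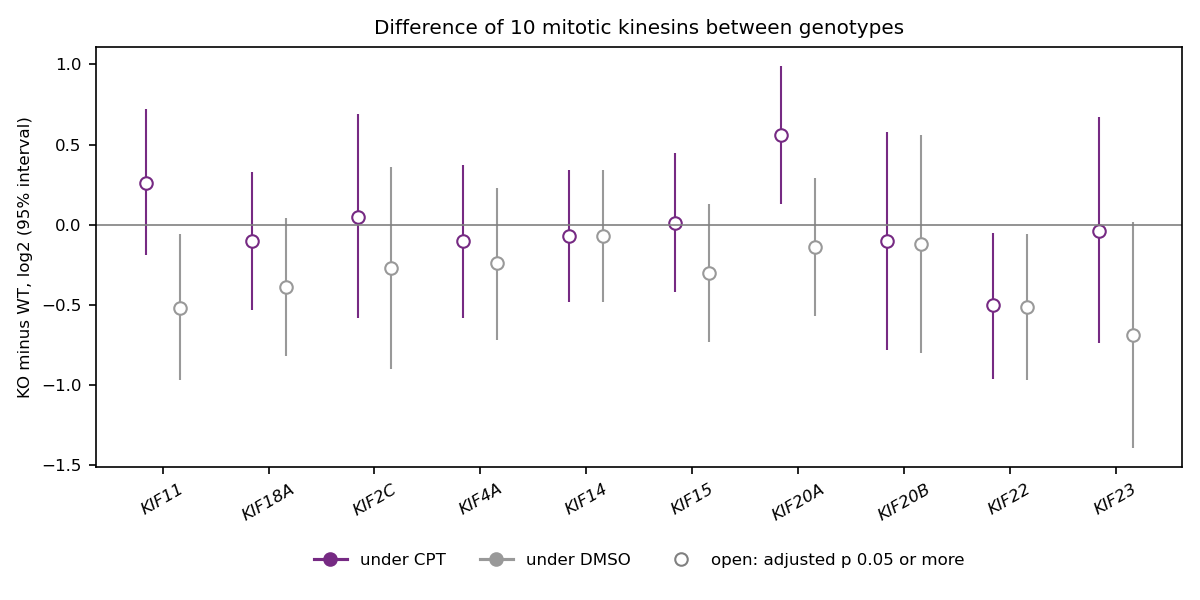
Fitted log2 difference between genotypes (vertical axis, KO minus WT) of each kinesin under CPT (left point of each pair) and under DMSO (right point). Bars are 95% intervals and all points are open because none was called. KIF22 lies near -0.5 under both treatments, and KIF20A at 0.56 under CPT and -0.14 under DMSO. The KIF18A point under CPT compares undetected signals.

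KIF22 differed between genotypes by -0.50 under CPT and by -0.51 under DMSO, and it was the only member whose WT CPT mean (8.88) was above its KO DMSO mean (8.82), 2 groups that overlapped. For the other 9 kinesins both DMSO means were above both CPT means. Of these 9, KIF2C, KIF14 and KIF23 had a CPT group that overlapped the KO DMSO group. WT DMSO was the highest group for all 10, and it overlapped KO DMSO except for KIF22 and KIF23. The lowest group was WT CPT for KIF11, KIF15, KIF20A and KIF2C and KO CPT for the other 6, and the CPT groups overlapped except for KIF20A and KIF22. For KIF18A the order of the CPT groups is one of undetected signals.

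The third question was whether the CPT response itself differed between genotypes. The difference between responses was the change in KO minus the change in WT cells, with the replicate block. It was below 0 for none of the 10 kinesins, against 48.6% of all genes. Its median over the kinesins was 0.30, against 0.01 for all genes. None was called, as for every other gene of the 10464 tested (0%; 508 genes had an unadjusted p under 0.05, 2 of the 10 kinesins among them). KIF11 had the largest fitted difference at 0.78 ± 0.25 (95% interval 0.22 to 1.34, adjusted p = 0.897), positive in each replicate at 0.56, 1.03 and 0.74. Its size is limited by CPT signals near the detection limit. KIF20A had 0.70 ± 0.23 (0.20 to 1.20, adjusted p = 0.897) and was positive in each replicate at 0.80, 0.95 and 0.35. KIF23 had 0.65 ± 0.31 (-0.02 to 1.32, adjusted p = 1), with 0.93, 0.80 and 0.22. The second KIF11 probe gave 0.70 ± 0.22, but all its CPT arrays were below detection, and the second KIF23 probe gave 0.19 ± 0.34.

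KIF20B, KIF22 and KIF14 had differences of 0.02 (95% interval -0.84 to 0.88), 0.01 (-0.43 to 0.45) and 0.00 (-0.56 to 0.56). The intervals of KIF2C, KIF4A and KIF15 all held 0. For KIF18A no CPT array was detected, so its difference between responses cannot be read, and it enters the counts and medians by its fitted value alone. The median over the 10 kinesins was 0.28, 0.67 and -0.04 in replicates 1 to 3, so replicate 3 did not share the direction. Replicate 2 holds the low KO DMSO array and replicate 3 the high WT CPT array. Without WT CPT replicate 1 the difference was positive for 7 kinesins and negative for 3 (median 0.18). The same counts were found without WT DMSO replicate 2 (median 0.14). Without KO DMSO replicate 1 it stayed positive for all 10 (median 0.36).

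**Figure D5:**
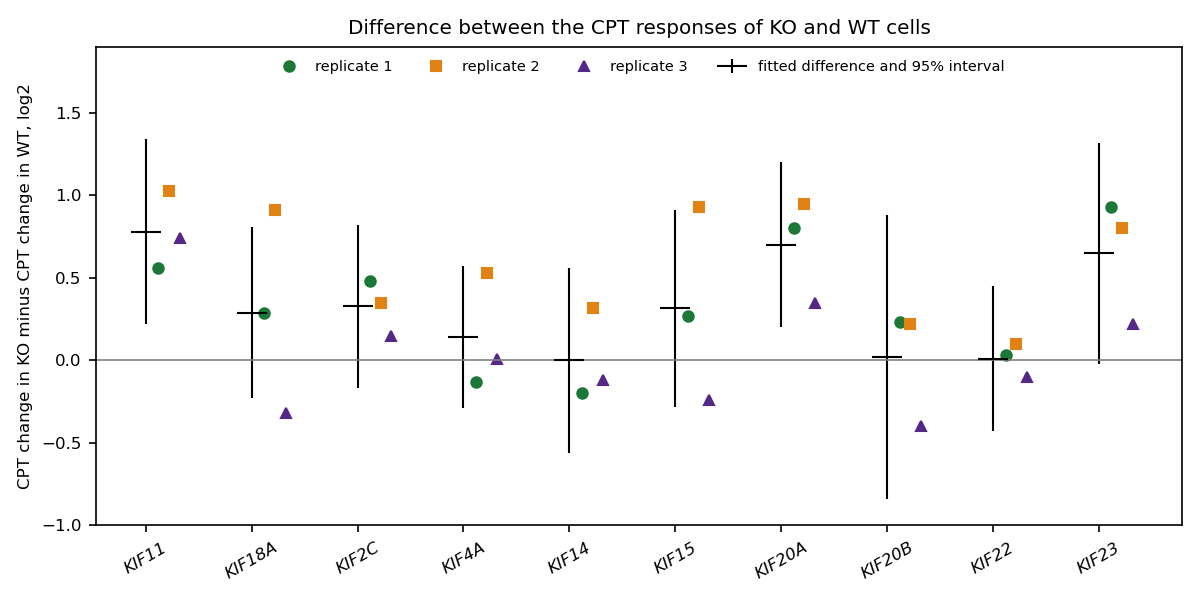
Difference between CPT responses (vertical axis, KO minus WT, log2) of each kinesin. Black marks are fitted differences with 95% intervals, and coloured points are replicates 1 to 3. KIF11, KIF20A, KIF2C and KIF23 are above 0 in all 3 replicates. KIF15, KIF20B, KIF22 and KIF18A have replicate 3 below 0 and the others above, KIF18A from CPT signals below detection.

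Mitotic kinesins outside the 10 also fell with CPT. Of CENPE, KIFC1, KIF2A, KIF2B and KIF18B, KIF18B was not analysed here and KIF2B was below detection. The 3 tested were called lower in both genotypes, against 17.9% of all genes in KO and 18.5% in WT cells. CENPE, the kinetochore motor that carries chromosomes to the equator, fell by 1.43 ± 0.23 in KO cells (adjusted p = 0.000701) and fell by 2.04 ± 0.23 in WT cells (adjusted p = 8.6e-05). KIFC1, a minus-end motor that clusters spindle poles, changed by -1.13 in KO and -1.21 in WT cells (adjusted p = 0.0122 and 0.00874). KIF2A, a depolymerase of the spindle poles, changed by -1.80 in KO and -1.47 in WT cells (adjusted p = 0.000362 and 0.00129).

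Kinesins of intracellular transport and their light chains were counted in the same way. Of 32, 15 were tested. In KO cells 4 were called lower and 1 higher (median -0.14), against 17.9% and 13.9% of all genes. In WT cells 5 were called lower and 2 higher (median -0.24), against 18.5% and 13% of all genes. KIF5B, the ubiquitous conventional kinesin heavy chain, fell by 1.38 in KO cells (adjusted p = 0.00154) and fell by 1.44 in WT cells (adjusted p = 0.00122). KIF21A changed by -1.20 in KO and -1.23 in WT cells (adjusted p = 0.0114 and 0.0105). KIF1B changed by -1.83 in KO and -1.25 in WT cells (adjusted p = 0.00076 and 0.00771), but its other probes disagreed in size, at -0.16 and -0.99 in KO and -0.23 and -0.90 in WT cells. KIFC2 rose by 0.68 in WT cells (adjusted p = 0.02), with 0.43 in KO cells (adjusted p = 0.116). The other calls, chosen after their values were seen, were KLC3 higher in both genotypes, KLC1 lower in KO cells, and KIF3B and KIF13B lower in WT cells, and the second probes of KLC3 and KLC1 did not show these changes. No WT CPT array detected KIF13B, so its call tests a fitted difference to undetected signals.

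The next list held partners and regulators of the kinesins at the spindle. Of 22 tested, 12 were called lower and 1 higher in KO cells (median -0.78), against 17.9% and 13.9% of all genes. In WT cells 14 were called lower and none higher (median -0.95), against 18.5% and 13% of all genes. AURKA, the centrosomal kinase, fell by 0.88 in KO cells (adjusted p = 0.0173) and fell by 2.17 in WT cells (adjusted p = 8.65e-05). PLK1, which phosphorylates several of these motors, fell by 1.91 in WT cells (adjusted p = 0.00057), with -0.81 in KO cells (adjusted p = 0.0535, and 0.00181 with the block). NEK6, a kinase that phosphorylates KIF11, changed by -2.05 in KO and -1.75 in WT cells (adjusted p = 0.000684 and 0.00189). ECT2, the exchange factor that centralspindlin recruits, changed by -1.43 in KO and -1.60 in WT cells (adjusted p = 0.000588 and 0.000281). The gene called higher in KO cells was BIRC5, the survivin subunit of the passenger complex, at 0.61 (adjusted p = 0.0306). Its second probe was called higher in both genotypes, at 1.67 in KO cells and 1.20 in WT cells (adjusted p = 6.72e-05 and 0.000646 over all probes).

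The last list held factors that control G2/M genes. Of 19 tested, 5 were called lower and 1 higher in KO cells (median -0.28), against 17.9% and 13.9% of all genes. In WT cells 7 were called lower and none higher (median -0.49), against 18.5% and 13% of all genes. NFYC, an NF-Y subunit, changed by -1.78 in KO and -1.58 in WT cells (adjusted p = 3.78e-05 and 9.19e-05), and E2F3 changed by -1.47 in KO and -1.27 in WT cells (adjusted p = 0.000123 and 0.000308). The MuvB subunit LIN54 changed by -0.96 in KO and -1.29 in WT cells (adjusted p = 0.0453 and 0.0122). The MuvB subunit LIN9 fell by 1.02 in WT cells (adjusted p = 0.0156), with -0.50 in KO cells (adjusted p = 0.195). The LIN54 probe was detected on 2 KO and 1 WT CPT arrays. The other genes called lower in KO cells were E2F4 and RBL1, RBL1 detected on no CPT array, and the one called higher was E2F1, at 0.71 (adjusted p = 0.0381). FOXM1 was not called, with a change of 0.34 in KO cells (adjusted p = 0.281) and 0.03 in WT cells (adjusted p = 0.924). Its second probe gave 0.20 and 0.17.

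The profiles most like the mean standardized profile of the 10 kinesins over the 12 arrays were those of GTSE1 (Pearson r = 0.982), BUB3 (0.979), ECT2 (0.977), ARHGAP11A (0.974) and GSPT1 (0.973). This mean profile was lower on the CPT arrays than on the DMSO arrays. A fall of these 5 genes with CPT therefore follows from how they were picked and is no separate result. GTSE1 changed by -0.79 ± 0.20 in KO cells and by -1.15 ± 0.20 in WT cells. Among the kinesins themselves, each of which is part of this mean, the likeness to it ran between 0.755 for KIF22 and 0.967 for KIF15 and KIF18A.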

How the data were processed

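HCT116 RNA was measured on 12 single-colour bead arrays. The authors exported mean bead signal intensities of 47300 probes from GenomeStudio (version not given in the sources used here) without background subtraction or scaling, with a deposited detection p-value per probe and array. They also deposited background-subtracted, quantile-normalized intensities, used as an alternative. In these, sorted values differed by 0.0148 within replicate 1 and by 0.0167 within replicates 2 and 3, but by 47.3 between the sets, so the sets were scaled separately.

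The unscaled intensities were background-corrected with nec in limma 3.58.1 (R 4.3.3, offset 16), log2-transformed, then quantile-normalized together across 12 arrays. Probes with detection p below 0.01 on at least 3 arrays and exactly 1 gene were kept (13735), and the brightest probe stood for each gene (10464). Symbols came from the platform annotation and RefSeq. Where no array of a group detected a gene, a bound against the lowest detected signal is given. Raw medians were 98.2 to 106.8, the lowest detected signals 106.5 to 118.4, and arrays within a group correlated at 0.938 to 0.987. The number of arrays limits the precision.

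One fit of all 12 arrays (lmFit, eBayes, two-sided, 8 residual degrees of freedom) gave 4 comparisons. The difference between CPT responses had the replicate number as a block (6 residual degrees of freedom). Deviations from group means correlated at 0.25 to 0.69 for the 18 same-numbered pairs and at -0.59 to 0.03 in the 36 other pairs, so the data, not the labels, make the numbers pair the samples. Genes named beside the kinesins were all tested genes of the other mitotic kinesins, up to 4 called genes per list with the largest change with CPT in WT cells, ATF3, and the 5 genes most like the mean kinesin profile. FOXM1 was given because the opening names it. The members and lists were chosen with earlier results of these data known. The fit was tested on simulated data. Alternatives were median scaling, no background correction, the authors' values, other detection filters, the mean of a gene's probes, replicates 2 and 3 alone, each array left out, and the block.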

Additional observations from a re-analysis of the deposited data

How the results depend on the processing

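Of the 10 kinesins, 7 were called lower with CPT in KO cells (17.9% of all genes) and 8 in WT cells (18.5%). With the authors' normalized values these counts were 2 in KO and 5 in WT cells, and the shares of all genes were smaller too, at 6.71% and 7.55%. With detection required on all 12 arrays, which leaves out KIF15, KIF18A and KIF20B, they were 4 and 5 of 7 tested (16.9% and 17.4% of all genes). Leaving out 1 array gave 5 to 8 in KO and 7 to 9 in WT cells. The share of all genes called lower was then 13.4% to 20.2% in KO and 14.3% to 19.8% in WT cells. KO cells had 5 without KO DMSO replicate 1, KO CPT replicate 2 or KO DMSO replicate 3. Replicates 2 and 3 alone gave 5 in KO and 7 in WT cells (13.4% and 13.8% of all genes). The replicate block gave 10 in each genotype (24.5% of all genes in KO and 25.4% in WT cells), with KIF18A counted by its fitted change although no CPT array detected it. In the other comparisons it called no kinesin, and neither did the difference between responses without the block. The 3 comparisons between genotypes had 0 kinesins called under every alternative, leaving out any single array included. Over all values of single kinesins and alternatives, 949 kept their side of the threshold, 22 lost and 14 gained the call, and no called value changed sign. The cause of these changes was not tested. Without background correction the same numbers of kinesins were called, but their median change was -0.54 in KO and -0.86 in WT cells, against -0.91 and -1.33. In WT cells KIF11 then changed by -1.32 and KIF18A by -1.18, against -2.48 and -2.65. Median scaling set the median change of all genes at 0.20 in KO and 0.22 in WT cells, against 0.03 in each, and the share of calls that were higher at 59.8% in KO and 61.3% in WT cells, against 43.6% and 41.3%. Low signal limits KIF18A, KIF15, KIF20B and KIF11 under CPT.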
